A study of Mus musculus with 2 samples.

Results

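Late round spermatids at the onset of protamine expression are haploid male germ cells that have built the acrosome cap and start to prepare for nuclear compaction. They were looked for here in single-cell RNA libraries of testis from 8-month-old mice, 1 library labelled Igf2bp1 KO (a conditional knockout) and 1 library labelled wild type. The series text names 2 mice; the Cre line and the deleted part of Igf2bp1 are not stated there, and the labels give no further treatment. Both testes were digested with enzymes and loaded on 10x Genomics droplets, which count RNA molecules by unique molecular identifiers (UMIs) for each cell barcode. With 1 library per genotype there is no test of the genotypes, and every interval below covers counting error only.

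A barcode was taken as a member when it held at least 8000 UMIs and when Prm1, Prm2, Tnp1 and Tnp2 together made up 1.2% to under 10% of them. Prm1 and Prm2 encode protamines, which replace histones in the sperm nucleus, and Tnp1 and Tnp2 encode transition proteins, which act between both. Members also had at least 8 UMIs of the acrosome and head genes Acrv1, Spaca1, Spaca3, Spaca7, Tssk1 and Sun5, and at least as many of these as of the spermatocyte genes Piwil1, Pou5f2, Ccna1, Aurka, Mybl1 and Ovol1. The Leydig cell genes Insl3, Cyp17a1 and Cyp11a1 had to stay under 10 UMIs together. The rule found 306 members among 17968 KO barcodes and 181 among 17362 WT barcodes, 487 of 35330 in all. These measured values chose the members, so levels of the rule's own genes are given as a description.

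In round spermatids transcription and translation are uncoupled: mRNAs of protamines and transition proteins are made early, stored, and translated only once the nucleus elongates. Much of the transcription of this stage depends on CREM, a factor that binds cyclic AMP response elements, together with its testis partner FHL5. IGF2BP1 is an RNA-binding protein known for keeping target mRNAs stable. The stage is known in textbooks by the perinuclear theca, the protein shell around the nucleus, and 6 genes were given as its markers. Ccin (calicin) and Actrt3 (an actin-related protein) encode proteins of that shell, Saxo1 encodes a stabiliser of axonemal microtubules, Cst13 belongs to the cystatin protease inhibitors, Hemgn encodes the nuclear protein hemogen, and Pex5l is a relative of the peroxisomal import receptor.

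Promoter sequences of these genes and of the protamine locus are shown because the CREM response element can be read in them directly. The element was searched as TGANGTCA on both strands, which reads TGACNTCA on the other strand and includes the full palindrome TGACGTCA, over the 250 bases before each RefSeq start (GRCm38.p6, the same build as mm10, which the submitters' processing notes name). The motif was chosen after the sequences had been seen. The lines give the 100 bases before the start on the gene's own strand, 5′ to 3′, with matches in capitals.
Ccin, chr4:43983404-43983503, plus strand: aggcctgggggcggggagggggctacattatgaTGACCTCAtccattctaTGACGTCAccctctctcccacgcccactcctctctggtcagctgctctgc
Saxo1, chr4:86558304-86558403, minus strand: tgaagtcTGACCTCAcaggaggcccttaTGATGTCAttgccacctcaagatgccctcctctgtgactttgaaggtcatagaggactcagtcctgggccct
Hemgn, chr4:46404184-46404283, minus strand: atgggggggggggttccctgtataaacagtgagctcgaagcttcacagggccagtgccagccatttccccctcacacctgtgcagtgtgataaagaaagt
Banf2, chr2:144033002-144033101, plus strand: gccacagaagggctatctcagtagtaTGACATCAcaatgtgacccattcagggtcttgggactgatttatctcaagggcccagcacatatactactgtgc
Tnp1, chr1:73015900-73015999, minus strand: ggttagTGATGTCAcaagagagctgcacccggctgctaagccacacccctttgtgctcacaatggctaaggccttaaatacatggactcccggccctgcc
Prm1, chr16:10796824-10796923, minus strand: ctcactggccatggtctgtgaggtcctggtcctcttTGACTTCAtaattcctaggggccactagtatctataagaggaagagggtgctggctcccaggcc

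Of the 6 markers, 5 had a promoter entry, and the promoters of Ccin and Saxo1 held the element, each at 2 places. The Ccin promoter held the full palindrome at position -50 from the start and the single-base variant at -67. Among the 4 protamine and transition protein genes, Tnp1 held it at -94 and Prm1 at -64. The element was present in 2460 of 32851 mouse promoters (7.49%), and the full palindrome in 508 (1.55%). Of 20 matched genes that stood highest at this stage in WT, described further on, Banf2 and Tmem144 held it, in 3 of 29 promoters. These are matches of letters; binding was not measured.

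Most members carried the markers of the label at low levels: 290 of 306 in KO and 126 of 181 in WT held the 6 markers at under 1200 counts per 1000000 UMIs (CPM). Over all members the 6 markers together reached 472 CPM in KO and 687 in WT, above the early round spermatids, at 132 and 191, but below the free RNA of the same libraries, at 672 and 1022. Free RNA was read from the lowest 10% of barcodes by UMIs, with medians of 1302 and 969 UMIs. These barcodes were taken to hold the RNA that droplets carry without a cell, which was not tested. Single ones among them reached 18268.5 CPM of macrophage markers in KO and 21538.5 CPM of Sertoli markers in WT, where the medians were 0. This free RNA has a protamine and transition protein share of 4.69% in KO and 6.14% in WT, inside the limits of the rule. Scaled to 8000 UMIs it would hold 22 acrosome and head UMIs and 3.45 spermatocyte UMIs in KO, against 21.8 and 3.41 in WT, which also meets the rule. Across 5399 genes the summed profile of the members correlated with free RNA at Pearson's r of 0.973 in KO and 0.967 in WT, higher than with early round spermatids (0.892 and 0.925) or elongating spermatids (0.808 and 0.824). In the members under 1200 CPM, r was 0.964 with free RNA and 0.90 with early round spermatids in KO, while in WT it was 0.935 and 0.949. In those above, it was 0.873 with free RNA and 0.861 with elongating spermatids in KO, and 0.932 and 0.873 in WT. These correlations are over genes that share libraries and are a description. The members are called gated barcodes below.

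**Figure D1:**
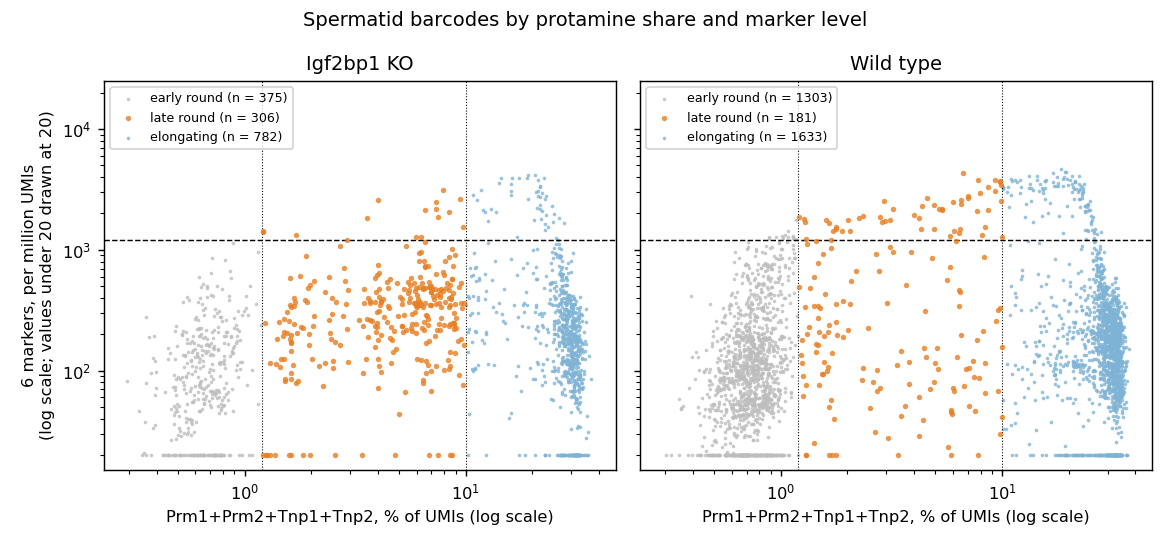
Each point is a spermatid barcode, KO left and WT right, by its protamine and transition protein share (percent of UMIs, log scale) and its summed level of the 6 markers (CPM, log scale; values under 20 drawn at 20). Dotted lines mark the limits at 1.2% and 10%, and the dashed line at 1200 CPM marks the 16 KO and 55 WT members above it.

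Within the gated barcodes a smaller group carried the markers strongly. Members with the 6 markers at 1200 CPM or more are called marker-high members, a limit set after the values had been seen. There were 16 in KO, which is 5.23% of the KO members (95% Clopper-Pearson interval 3.02 to 8.35), and 55 in WT, which is 30.4% (23.8 to 37.6). A limit of 1000 gave 20 and 60 members, and a limit of 1500 gave 10 and 42. Their median depth was 18905 UMIs in KO and 25357 in WT, with a median mitochondrial share of 0.424% and 0.176%. All gated barcodes had medians of 10439 and 25130 UMIs, with mitochondrial shares of 1.63% and 0.694%, so KO members were shallower on the whole.

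Sub-clustering the 487 members gave 12 clusters. In 1 of them, of 40 barcodes (9 KO and 31 WT, all marker-high), 5 of the 6 markers were among the 20 leading genes, and it is late round spermatid-like. A neighbouring cluster of 48 (9 KO and 39 WT) was led by Banf2, with Pex5l and Saxo1 among its leading genes, and held 27 marker-high members. Its median level of the 6 markers was 1270 CPM. Only 2 of the 6 were among its 20 leading genes, under the 3 required for a name, so it stays unnamed. A cluster of 72 (67 KO and 5 WT) had the spermatocyte genes Piwil1 and Sycp3 among its leaders, and 1 of 53 (51 KO and 2 WT) had Insl3 and Cyp17a1 of Leydig cells beside Lyz2 of macrophages. Another, of 23 (20 KO and 3 WT), had 6 Sertoli markers among its leaders, Clu and Cst9 first. Another 3 clusters had 39, 29 and 21 barcodes, nearly all KO (39, 27 and 21), and were led by Igkc or S100a6. The rest were a cluster of 53 (9 KO and 44 WT) with Aurka, 1 of 39 (30 KO and 9 WT) with C1qa and Dazl, 1 of 36 (8 KO and 28 WT) with Slfn3 and Pole2, and 1 of 34 described further on. The cluster of 29 and that of 39 with C1qa had 4 and 3 macrophage markers among their 20 leading genes. The cluster of 53 with Insl3 had 3 Leydig markers among its leaders. All reach the 3 required for a name, macrophage-like or Leydig-like. Their summed macrophage or Leydig markers were 477, 370 and 396 CPM, under their round spermatid markers at 3107, 2700 and 3605. Where 1 library holds nearly all of a cluster, library and cell type cannot be told apart.

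Markers of somatic cells moved with the genotype in the gated barcodes. The 10 Sertoli markers summed to 890 CPM in KO and 219 in WT, and the 8 macrophage markers to 234 and 11.8. The 8 Leydig markers summed to 437 and 134. Of these, Insl3, Cyp17a1 and Cyp11a1 belong to the rule and were held under 10 UMIs per member. Fdx1 is also read in germ cells. Without Fdx1, the Sertoli, Leydig and macrophage markers together fell from 365 to 240 CPM in WT and from 1560.5 to 1442 in KO. The Leydig sums therefore do not compare Leydig cell RNA between the libraries. Mesenchymal markers summed to 43.0 in KO and 2.53 in WT, and B lineage markers to 57.4 and 9.47. In marker-high members Sertoli markers summed to 121 in KO and 41.5 in WT, Leydig markers to 277 and 117, macrophage markers to 72.9 and 32.5, and B lineage markers to 36.4 and 14.0. The WT sums of macrophage and B lineage markers were thus higher in marker-high members than over all gated barcodes. Of the 10 Sertoli markers 4 were at 0 in KO marker-high members (Sox9, Cldn11, Trf and Ctsl), where 3 counts would give 8.41 CPM. In WT 3 were at 0 (Wt1, Cldn11 and Trf). The others were read, among them Clu at 33.6 CPM in KO and 7.65 in WT, and Defb19 at 58.9 and 15.9. Insl3 reached 151 CPM in KO and 5.74 in WT. From such somatic transcripts, leaving out Fdx1, the free RNA in marker-high members was estimated at 29.3% of UMIs in KO and 23.5% in WT. It was 21.6% and 17.0% in early round spermatids, and 33.8% and 29.6% in elongating ones. For all gated barcodes it came to 109% and 68.3%, a value for KO over the whole. With Fdx1 kept, it was 32.6% in KO and 42.4% in WT marker-high members, which turns the order of the libraries. Over all gated barcodes it was then 108% and 81.3%. The Leydig genes of the rule enter all these estimates, so the rule's limit on them bears on the estimates.

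**Figure D2:**
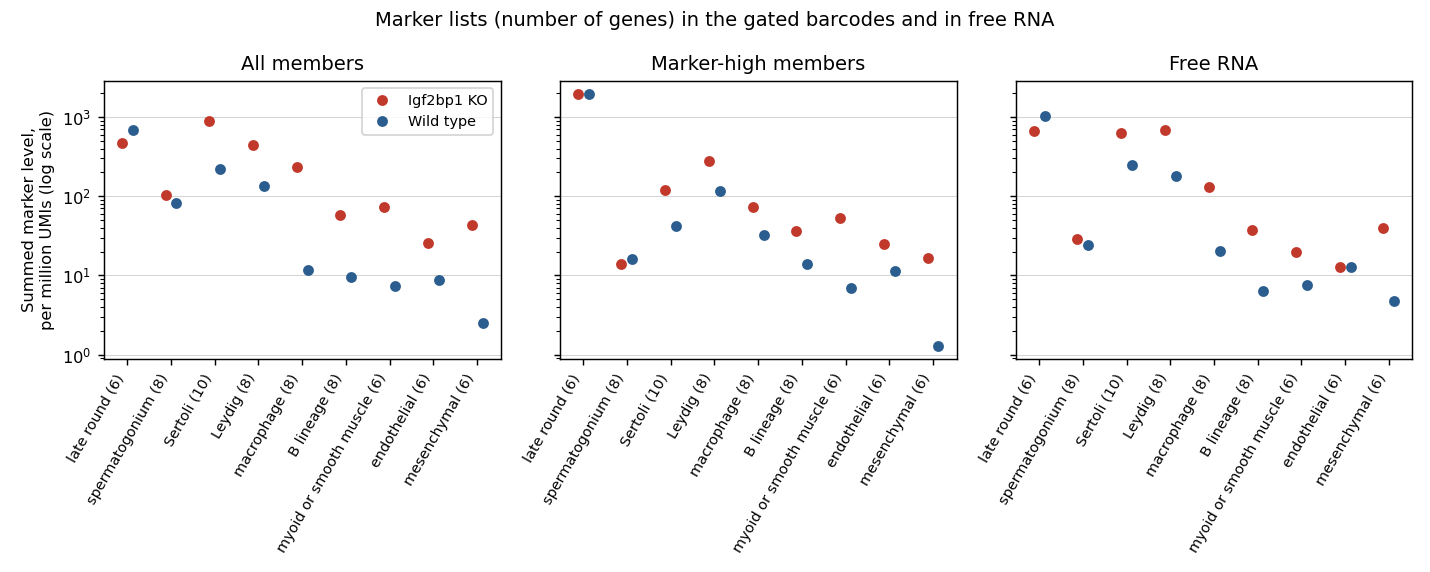
Summed levels of marker lists (CPM, log scale; number of genes in parentheses) in all members, in marker-high members and in free RNA, with KO drawn left of WT. Sertoli markers stand at 890 in KO and 219 in WT over all members, against 121 and 41.5 in marker-high members.

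The share of gated barcodes differed between the libraries, in a direction that changed with the depth limit when all barcodes were the denominator. They made up 1.70% of KO barcodes (1.52 to 1.90) and 1.04% of WT barcodes (0.897 to 1.2), a log2 ratio of 0.71 (0.44 to 0.98). With at least 12000 UMIs required they made up 0.584% in KO and 0.887% in WT, a ratio of -0.60. Over the barcodes past the UMI floor alone, the share was 8.36% in KO (7.48 to 9.30) and 4.58% in WT (3.95 to 5.28). With 12000 UMIs it was 4.89% in KO (4.02 to 5.89) and 4.42% in WT (3.76 to 5.16), with intervals that overlap. For marker-high members, at 0.0890% of KO and 0.317% of WT barcodes, the log2 ratio over all barcodes was -1.83 (-2.73 to -1.01). In KO, 1928 barcodes met every limit but the last, and the Leydig limit removed 1622 of them, with a median of 43 Leydig UMIs. In WT it removed 3 of 184. Of the KO members 94 still held 5 to 9 Leydig UMIs and 31 held none; in WT 0 held 5 to 9 and 144 held none. No barcode sequence was shared by members of both libraries, out of 106 shared in all.

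At the edges of the protamine range the marker level behaved differently in the libraries. Just outside and just inside the lower limit, at 1 to 1.2% and 1.2 to 1.4%, KO had 12 and 11 barcodes with the 6 markers at 277 and 319 CPM, while WT had 82 and 18 at 435 and 563. Just inside and just outside the upper limit, at 9 to 10% and 10 to 11%, KO had 14 and 20 barcodes at 531 and 458, and WT had 14 and 11 at 1617 and 2202. In WT 10 barcodes just under the lower limit were above 1200 CPM, and in KO 0 were.

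The stage was described in the marker-high members, with early round spermatids (the same rule, but a protamine and transition protein share under 1.2%; 375 KO and 1303 WT barcodes) and elongating spermatids (a share of 10% or more; 782 KO and 1633 WT) on either side. Elongating barcodes met the same UMI and Leydig limits, but no limit on acrosome and head genes or spermatocyte genes. The protamine and transition protein share pooled over each set was 0.621%, 5.38% and 27.5% in KO early round, marker-high and elongating barcodes. In WT it was 0.720%, 4.97% and 27.3%. The 6 markers chose these members, so the following levels are a description. Hemgn stood at 10.7, 390 (327 to 460) and 98.3 CPM in the 3 KO stages, and at 17.1, 390 (359 to 422) and 119 in WT. Cst13 stood at 13.4, 446 and 127 in KO and at 21.3, 446 and 140 in WT. Both were low in early round spermatids and lower again, though not at the start level, in elongating ones.

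Pex5l stood at 25.5, 409 and 51.7 CPM in KO and at 45.5, 439 and 70.0 in WT. Saxo1 stood at 37.8, 283 and 28.2 in KO and at 48.3, 241 and 37.3 in WT. These CPM are over all UMIs, of which protamine and transition protein genes made up 27.5% in KO and 27.3% in WT elongating barcodes. In early round barcodes those genes made up 0.621% and 0.720%. Whether Saxo1 ended under its early round level can therefore not be told from these values. For the theca genes, Ccin stood at 40.1, 317 and 73.8 in KO and at 53.5, 340 and 78.8 in WT, and Actrt3 at 4.48, 129 and 41.3 in KO and at 4.90, 115 and 42.7 in WT. Between KO and WT marker-high members, none of the 6 passed 1.5-fold. The same limit on their sum chose the members of both libraries, so this cannot show that their levels are alike. Over all gated barcodes Pex5l and Saxo1 were at least 1.5-fold lower in KO.

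Many other genes shared this shape. In WT, 244 of 3007 genes at 50 CPM or more were at least 2-fold over both neighbouring stages (8.11%). The KO library, not used for that ranking, had 209 of these 244 past the same fold and 243 above both neighbours, and 8.31% of the 3007 genes past it. The members were chosen by 6 of these genes and a free RNA share remains in them, so the counts describe the shape and support no list. Parn, a ribonuclease that shortens poly(A) tails, led the WT ranking with 6.61, 135 and 11.3 CPM in the KO stages and 8.27, 112 and 12.7 in the WT stages. Dyrk4, a kinase of the DYRK family, had 2.91, 58.9 and 5.79 in KO and 4.73, 71.4 and 7.85 in WT.

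Srgn, the core protein of the proteoglycan serglycin, had 6.61, 89.7 and 8.10 CPM in KO and 7.5, 81.0 and 9.38 in WT. Osbpl7, of the oxysterol-binding family, had 3.25, 84.1 and 9.26 in KO and 3.40, 88.7 and 10.5 in WT. Cd59a, Cd59b and Cd46 encode regulators of complement. Cd59a had 5.37, 137 and 12 in KO and 6.09, 105 and 15.3 in WT, Cd59b had 2.35, 86.9 and 12.9 in KO and 3.60, 83.6 and 15.9 in WT, and Cd46 had 2.13, 33.6 and 6.56 in KO and 2.21, 52.3 and 7.91 in WT. Cd59a and Cd59b are related genes, and how reads were divided between them was not checked. In the mouse CD46 is known from the acrosome.

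Banf2, a relative of the chromatin protein BAF whose promoter is printed above, had 57.9, 726 and 111 CPM in KO and 80.2, 645 and 128 in WT. Adig, known as adipogenin from fat cells, had 21.5, 563 and 94.7 in KO and 40.0, 459 and 108 in WT. Tmem144, which also held the CREM element, had 11.2, 135 and 25.2 in KO and 20.9, 166 and 31.3 in WT. Nmur1, the receptor of neuromedin U, had 2.35, 101 and 9.49 in KO and 2.35, 56.1 and 8.89 in WT, the one of these whose marker-high levels were furthest apart.

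**Figure D3:**
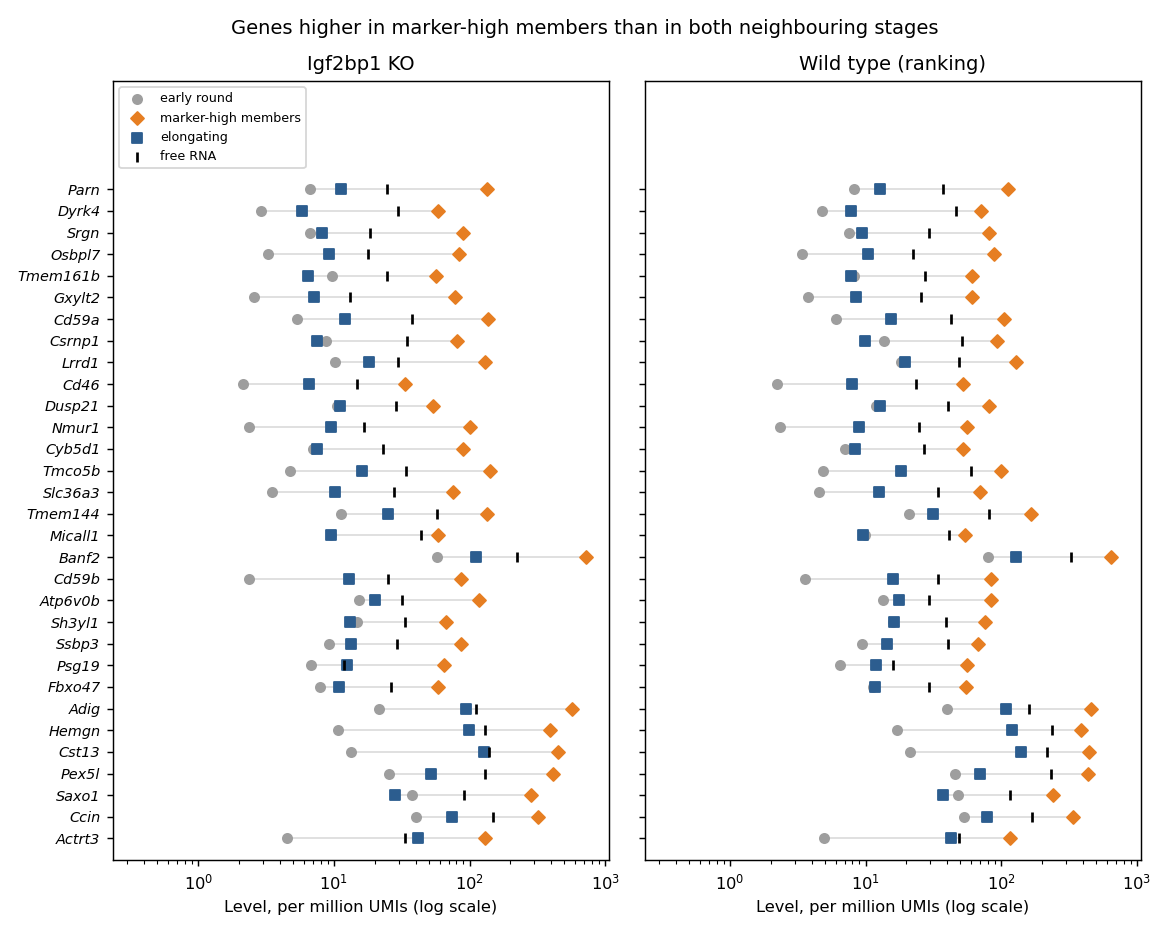
Levels in CPM (log scale) of the 25 genes ranked in WT and the 6 markers, in early round, marker-high and elongating barcodes and in free RNA, KO left and WT right. Parn stands at 135 in KO and 112 in WT marker-high members, against 6.61 and 8.27 in early round spermatids.

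The rule applied to all gated barcodes picked other genes. Then 15 of 3003 genes (0.5%) were at least 2-fold over both stages in both libraries, and 12 could be named. Ncl, which encodes nucleolin, reached 145 CPM in KO and 82.7 in WT gated barcodes, but 22.4 and 15.9 in marker-high members. Hist1h2ap, a replication-type histone, reached 104 in KO and 57.9 in WT, with 0 UMIs in marker-high members of either library. Ptma, Anp32b, Hmgb2, Hspa8, Hspe1, Nmt2, Mif and Cox8a were also among the 12, together with the Sertoli genes Clu and Defb19. Hist1h2ap led a cluster of 34 members (16 KO and 18 WT) with Stra8 and Uchl1, genes of spermatogonia, and a median mitochondrial share of 7.54%.

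Within the rule's own range, the gated barcodes were set in 4 bins of protamine and transition protein share, 1.2 to under 2%, 2 to under 4%, 4 to under 6% and 6 to under 10%. In both libraries 122 of 3204 genes were at least 2-fold higher in the last bin than in the first (3.81%) and 22 at least 2-fold lower (0.687%). Col20a1, a collagen-like gene, had 17.4, 58.0, 85.8 and 134 CPM in KO and 13.3, 41.0, 60.5 and 114 in WT, over UMIs without the 4 protamine and transition protein genes. Klk1b8, Ttc24, Car2 and Paqr5 followed, and Car2, a carbonic anhydrase, is 1 of the markers of elongating spermatids. The 10 furthest down were Ncl, Ptma, Hells, Dazl, Anp32b, Hspe1, Hmgb2, Rbm39, Tpr and Top2a. Dazl, an RNA-binding protein of early germ cells, had 132 CPM in the first and 43.2 in the last KO bin, and 78.3 and 29.7 in those of WT.

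Marker-high barcodes were then followed along the protamine share beyond the limits of the rule, in steps of under 1.2%, 1.2 to under 10%, 10 to under 20% and 20% or more. These steps held 0, 16, 19 and 29 barcodes in KO and 13, 55, 56 and 56 in WT. Levels are CPM over the UMIs other than those of Prm1, Prm2, Tnp1 and Tnp2. The limit on the summed markers chose the barcodes of every step, so marker levels and their order along the steps are a description. The steps from 10% on hold a small part of the 782 KO and 1633 WT elongating barcodes. Among the barcodes chosen in this way, the markers did not peak together. Hemgn reached 412, 947 and 846 in the last 3 KO steps and 177, 410, 967 and 903 in the 4 WT steps. Cst13 was highest in the last step, with 471, 1009 and 1156 in KO and 160, 470, 946 and 1184 in WT. Saxo1 had 299, 279 and 116 in KO and 282, 254, 333 and 106 in WT.

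Of 2836 genes at 50 CPM or more, 378 were at least 2-fold higher in the last WT step than in the second (13.3%) and 713 at least 2-fold lower (25.1%). In KO all 378 of the first had the same direction and 269 passed the fold, and of the 713, 709 had the same direction and 586 passed it. Klk1b8, a kallikrein protease, stood at 222, 742 and 1243 in KO and at 21.5, 164, 728 and 1153 in WT. Cby3, of the chibby family, stood at 20.7, 175 and 357 in KO and at 7.17, 32.2, 170 and 384 in WT. Tmem189, the enzyme that makes the vinyl ether bond of plasmalogens, stood at 20.7, 199 and 309 in KO and at 2.39, 40.9, 152 and 324 in WT.

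Insig1, a sterol sensor of the endoplasmic reticulum, stood at 11.9, 117 and 112 in KO and at 4.78, 10.7, 53.4 and 127 in WT. Among genes that dropped, H3f3b, which encodes the replacement histone H3.3, stood at 1943, 494 and 213 in KO and at 2780, 2130, 553 and 171 in WT. Tomm7, of the mitochondrial import pore, stood at 844, 264 and 87.7 in KO and at 1152, 884, 295 and 74.1 in WT. Stambpl1, a deubiquitinase, stood at 130, 12.3 and 8.77 in KO and at 189, 127, 22.1 and 6.95 in WT. Levels in a step depend on the makeup of its UMIs, so a drop in share is not a measured loss of molecules per cell.

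**Figure D4:**
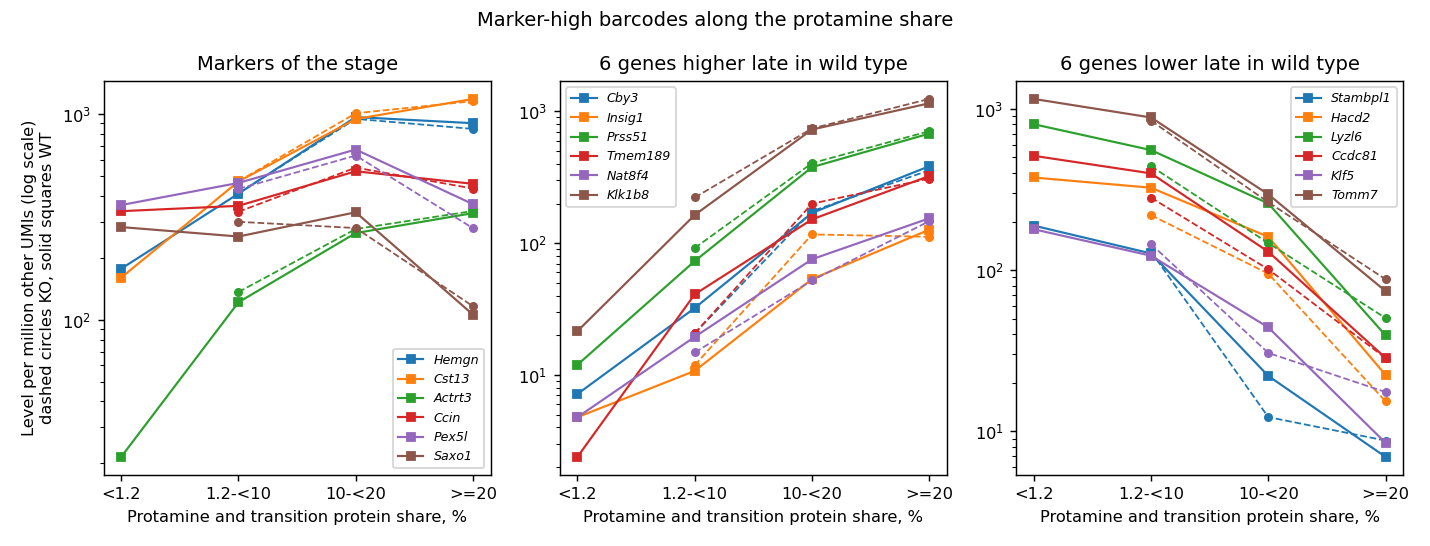
Levels in CPM over all other UMIs (log scale) of the 6 markers, of 6 genes that were higher late and of 6 that were lower late in WT, against 4 steps of protamine and transition protein share, in marker-high barcodes. Dashed lines with circles are KO, which has no barcodes in the first step, and solid lines with squares are WT; Klk1b8 ends at 1243 in KO and 1153 in WT.

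Gene lists were set against this stage by their members' roles. Over all genes, 22.6% in KO and 20.4% in WT were at least 2-fold higher in marker-high members than in early round spermatids, on totals without the 4 protamine and transition protein genes. For the perinuclear theca and head cytoskeleton it was 11 of 24 genes in KO and 11 of 23 in WT, with a median log2 of 0.92 and 0.98 against -0.25 and -0.26 for all genes. Ccin and Actrt3 are among these 11 and helped to choose the marker-high members; without them it was 9 of 22 in KO and 9 of 21 in WT. They include Calr3, a testis calreticulin, which had 21.4, 199 and 66.2 CPM in KO early round, marker-high and elongating barcodes and 22.1, 213 and 66.8 in WT. Sun3, a nuclear envelope protein of the manchette link, had 94.6, 227 and 50.7 in KO and 96.4, 246 and 57.6 in WT. Actrt2 had 159, 807 and 1435 in KO and 185, 827 and 1319 in WT, still higher in elongating spermatids. It is 1 of 4 theca genes in each library at least 2-fold lower than in elongating spermatids, where all genes gave 9.13% in KO and 9.16% in WT.

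In the list set up for X-linked and Y-linked spermatid genes and their families, 8 of 11 in KO and 8 of 10 in WT were past the fold. The chromosome of each member of this list was not checked. Cypt4, of a cysteine-rich theca family in it, had 1153, 3548 and 628 CPM in KO and 1032, 2803 and 630 in WT. Of the genes for histone variants and chromatin remodelling 3 of 13 in KO and 4 of 13 in WT passed, leaving out Tnp2, a gene of the rule. All genes gave 22.6% in KO and 20.4% in WT, so these counts are not far from that share. H2al2a, a histone variant that opens nucleosomes for transition proteins, had 62.2, 701 and 1895 in KO and 86.7, 872 and 2113 in WT, and H1fnt, a spermatid linker histone, 195, 1076 and 1345 in KO and 239, 1137 and 1404 in WT. Both were past the fold over early round spermatids and stood higher still in elongating ones.

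Of the spermatid transcription factors 2 of 12 in KO (16.7%) and 3 of 11 in WT (27.3%) passed, near the 22.6% and 20.4% of all genes. Fhl5, the partner of CREM, had 279, 961 and 297 CPM in KO and 274, 886 and 286 in WT. Crem itself had 488, 348 and 86.3 in KO and 498, 370 and 88.3 in WT, highest in early round spermatids. Hmgb4, a testis high mobility group protein, had 728, 2920 and 4580 in KO and 787, 2568 and 4254 in WT.

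Among genes of ubiquitin and cytoplasm removal 6 of 21 passed in each library (28.6%), near the 22.6% of all genes in KO and 20.4% in WT. Rnf151, a RING protein of the acrosome, had 1062, 2152 and 488 CPM in KO and 940, 1882 and 453 in WT. Of the genes for mRNA storage 2 of 21 in KO and 2 of 22 in WT passed, Eif4e and Paip2b in both. Paip2b, an inhibitor of poly(A)-binding protein, had 34.4, 143 and 17.6 in KO and 36.5, 142 and 19.2 in WT, and Eif4e, the cap-binding factor, had 111, 443 and 870 in KO and 128, 516 and 966 in WT.

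The acrosome and axoneme lists looked different, and the manchette list less so, above all in WT. Of the acrosome genes 4 of 23 in KO and 3 of 23 in WT were past 2-fold over early round spermatids. Against elongating spermatids 17 of 23 in each library were at least 2-fold higher, where all genes gave 35% and 37.2%. The rule required acrosome and head UMIs of marker-high and early round barcodes but not of elongating ones. It therefore bears on this count, which is a description. Acr, which encodes the protease acrosin, had 207, 205 and 35.1 CPM in KO and 288, 283 and 51.8 in WT. Of the axoneme genes 10 of 26 in KO and 6 of 25 in WT were at least 2-fold lower than in early round spermatids, against 18.5% and 13.6% of all genes, and 2 in each were higher. The higher ones include Tekt5, a tektin of the sperm tail, at 21.5, 140 and 40.9 in KO and 28.8, 170 and 44.3 in WT. For the manchette 7 of 22 in KO (31.8%) and 4 of 23 in WT (17.4%) were lower, where all genes gave 18.5% and 13.6%. The WT share is thus near that of all genes. In each library 3 were higher. Among them Ift172, a subunit of intraflagellar transport, had 83.1, 552 and 987 in KO and 103, 484 and 1001 in WT.

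Igf2bp1 had low counts in both libraries. In the gated barcodes it had 18 UMIs in KO, 4.74 CPM (2.81 to 7.5), and 48 UMIs in WT, 7.58 CPM (5.59 to 10.0). In the marker-high members it had 0 UMIs in KO, where 3 counts would give 8.41 CPM, and 7 UMIs in WT, 4.46 CPM. Early round spermatids had 2.91 CPM in KO and 3.29 in WT, and free RNA had 2.98 (1.2 to 6.14) and 3.51 (1.29 to 7.65), intervals that overlap those of the gated barcodes. The counts are 3′ tags, which do not check the label where the deleted part of the gene is not given. Igf2bp2 had 0 UMIs in marker-high members of both libraries. Igf2bp3, its paralog, had 66.8, 118 and 153 CPM in KO early round, marker-high and elongating barcodes and 69.7, 109 and 155 in WT.

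Over all gated barcodes the genes furthest above WT in KO were transcripts known from somatic and immune cells. Of 5574 genes at a mean of 20 CPM or more, 351 were at least 1.5-fold higher in KO (6.3%) and 118 at least 1.5-fold lower (2.12%). The balance turned with the scaling: TMM gave 293 higher and 186 lower, median of ratios, which shifted all genes by -0.15 on the log2 scale, gave 234 and 371, and thinning each barcode to 8000 UMIs gave 342 each way. Igkc and Ighm, of immunoglobulin chains, had 360 and 58.8 CPM in KO and 0 UMIs in WT, at least 760-fold and 124-fold higher against a floor of 3 UMIs in the WT members. Lyz2, lysozyme of macrophages, had 54.0 in KO and 0.316 in WT, and Lcn2, a lipocalin, had 198 and 2.84. Ifitm3, Ly6e, Wfdc17, Agt, Cd74 and Akr1cl complete the 10, between 41.9 and 72.2 CPM in KO and between 0 and 1.74 in WT. All 10 reached the required mean of 20 CPM through KO alone, so their place in the ranking is a description. They are among the 351 higher genes, which became 103 with a mean of 50 CPM required. Beside these, macrophage markers summed to 234 in KO and 11.8 in WT, and Igkc and Lyz2 were each among the leaders of clusters made almost wholly of KO barcodes; their part in the counts was not tested.

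Over 21 functional lists with 362 measured members, 24 were past 1.5-fold higher in KO (6.63%) and 3 lower (0.829%). Over all genes it was 6.3% and 2.12%, so the higher share is near that of all genes. Among the 6 markers Pex5l and Saxo1 were lower. Of the immediate early genes, Fos, Jun, Junb and Egr1 reached the required mean level through KO alone. Fos had 91.4 CPM in KO and 3.31 in WT, Jun 54.0 and 4.26, Junb 81.2 and 4.42, and Egr1 57.2 and 6.0. In free RNA Fos stood at 71.1 in KO and 8.20 in WT.

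The 10 genes lowest in KO by the same ranking included several known from germ cells. Hist2h2aa1, a histone H2A gene with a near-identical copy, had 81.7 CPM in KO and 189 in WT, a log2 of -1.21. Pole2, a DNA polymerase subunit, had 15.0 in KO and 36.5 in WT, a log2 of -1.28, but 0.23 in marker-high members. Hacd2, an enzyme of fatty acid elongation, had 94.9 in KO and 173 in WT, and Lztfl1, a regulator of ciliary transport, had 89.6 and 160. Spata31 had 138 in KO and 240 in WT. In free RNA the log2 was -1.16 for Hist2h2aa1, -0.79 for Hacd2 and -0.21 for Lztfl1, but 0.17 for Pole2 and 0.14 for Spata31. The part of free RNA in these ratios was not tested. The remaining 5 of this ranking were Tmem239, Dynlt1b, Upk3bl, Tmem243 and Dynlt1a; the Dynlt1 genes are near-identical copies, whose counts are uncertain.

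The marker-high members, with fewer UMIs, were compared at a higher level of expression. Of 1862 genes at a mean of 100 CPM or more, 33 were at least 1.5-fold higher in KO (1.77%) and 58 at least 1.5-fold lower (3.11%), with a median log2 of -0.02. Scaling by TMM gave 55 and 47, which turns the balance round. Of 220 measured members of the 21 lists, Spatc1, a gene of the sperm neck, was higher at 146 CPM in KO and 91.8 in WT. The fusion gene Izumo1 was lower at 101 in KO and 160 in WT, Spesp1 of the acrosome at 118 and 182, and the axoneme gene Spag17 at 149 and 262. These 4 of 220 are set against 1.77% higher and 3.11% lower over all genes. Spaca1, which belongs to the rule itself, was also lower at 395 and 599. Early round spermatids, with many more UMIs, had 21 genes higher and 21 lower in KO of 5243 at 20 CPM or more (0.401% each way). Elongating spermatids had 34 higher (1.02%) and 16 lower (0.481%) of 3326.

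The 10 genes lowest in KO by the bound of their interval were led by Hist2h2aa1, with 126 CPM in KO and 298 in WT, a log2 of -1.24 (-1.72 to -0.80). Its early round levels were 94.8 in KO and 183 in WT, a log2 of -0.95, and in elongating spermatids the log2 was -0.84. Amn1 had 72.9 in KO and 172 in WT, a log2 of -1.24, with early round levels of 402 and 398. Rasl2-9, a testis GTPase related to Ran, had 64.5 in KO and 140 in WT. Stat4, a signal transducer of cytokine receptors known from haploid mouse germ cells, had 72.9 in KO and 151 in WT.

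Ppm1b, a protein phosphatase, had 129 CPM in KO marker-high members and 237 in WT. Lrrcc1, of the centrosome, had 84.1 in KO and 170 in WT. Cfap97, Rnf32, Fam227a and Cfap36 complete the 10, with log2 of -1.21, -0.99, -1.02 and -0.74. In WT 7 of these 10 stood lower in marker-high members than in early round spermatids, and in KO 8 did. Where along the stage the 16 KO barcodes lie and the genotype cannot be told apart in these ratios. With members at a share of 4% to under 10% only, the 10 ratios kept their sign, Amn1 at -1.30 and Stat4 at -0.96.

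Among the 10 highest in KO, Tfam, which packages mitochondrial DNA, had 387 CPM in KO and 244 in WT, a log2 of 0.67 (0.38 to 0.95), against 24.3 and 23.4 in early round spermatids. A single KO barcode held 31.9% of its KO UMIs. Iqcf1, a calmodulin-binding protein of the acrosome, had 1578 in KO and 1161 in WT, and Ndufa13, of respiratory complex I, had 586 and 403; both were named by the bound of their interval and are under 1.5-fold. Cep112 of the centrosome had 462 in KO and 297 in WT, Xrra1 had 291 and 182 (a log2 of 0.68, but 0.03 with barcodes thinned to 8000 UMIs), Prss54 had 328 and 216, and Crip2, a LIM domain protein, had 149 and 88.0.

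The remaining 3 of the 10 are known from somatic cells as well. Tmsb4x, which binds actin monomers, had 185 CPM in KO and 87.4 in WT, a log2 of 1.08 (0.64 to 1.52), with 33.3% of the KO UMIs in 1 barcode and a log2 of 0.07 with the markers at 1500 CPM or more. Fth1, ferritin heavy chain, had 171 in KO and 87.4 in WT, a log2 of 0.97, but 0.09 with the markers at 1500 CPM or more. Malat1, a nuclear non-coding RNA, had 1272 in KO and 828 in WT, while free RNA held 2207 and 748; with free RNA subtracted its log2 was 0.06, against 0.62 without, and with the markers at 1500 CPM or more it was 0.09. Fos had 109 in KO marker-high members and 2.55 in WT, under the level required for the counts.

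**Figure D5:**
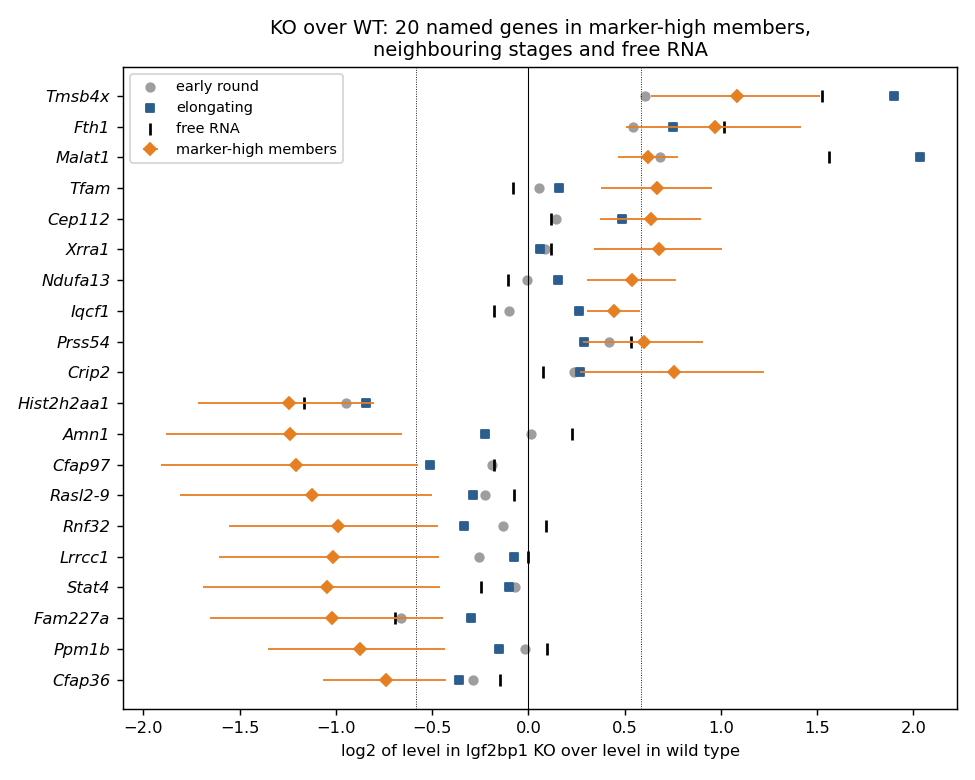
The log2 of the KO level over the WT level for the 20 named genes in marker-high members (diamonds, with 95% intervals that cover counting error only) and in early round spermatids, elongating spermatids and free RNA. Dotted lines mark 1.5-fold; Hist2h2aa1 stands at -1.24 in marker-high members and -0.95 in early round spermatids, while Amn1 is near 0 outside marker-high members.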

How the data were processed

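The deposited values are raw counts of UMIs for each gene in each barcode, in 1 KO and 1 WT testis library of 98033324 and 121257944 UMIs. The authors used Cell Ranger 2.2.0 and STAR with the mm10 genome, per the submitters' processing notes; their rule for calling cells is not stated. From these counts the members were taken by the stated rule, and their UMIs were summed per library and scaled to counts per 1000000 UMIs, CPM (Python 3.11.15, numpy 2.4.6).

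Levels carry exact Poisson 95% intervals, ratios exact conditional binomial ones and shares Clopper-Pearson ones (scipy 1.17.1). They cover counting error only, and 1 library per genotype allows no p-value. A gene was past the fold at 1.5-fold with a mean of at least 20 CPM, or 100 in marker-high members. Stage and course comparisons used 2-fold and 50 CPM. Sub-clusters used 2000 variable genes, 20 principal components, 15 neighbours and Leiden at resolution 1 (scanpy 1.11.5, leidenalg 0.10.2); figures used matplotlib 3.10.9. No doublet caller was run; 2 KO and 45 WT members, 1 and 12 of them marker-high, were over 2 times the early round median UMIs.

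Named genes were the rule's genes, the markers, the Igf2bp genes, the 10 highest and lowest ratios by the interval bound nearest to 0, the 12 leading stage genes, and list members past the fold or with high levels. Gene models with numbers, ribosomal protein, mitochondrial and haemoglobin genes were left out of rankings. Marker-high members, their 25 ranked stage genes and the genes followed along the protamine share were added after the values had been seen, and examples among them were picked for a known role. The members and lists were chosen with earlier results of these data known. The code was tested on simulated counts. Alternatives covered scaling (TMM from edgeR 4.0.16, median of ratios), level filters, depth, stage mix, the limits of the rule and free RNA. Promoters came from RefSeq.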

Additional observations from a re-analysis of the deposited data

How the results depend on the processing

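The share of gated barcodes, a log2 KO over WT of 0.71, was 1.72 with a floor of 5000 UMIs, -0.60 with 12000 (where the share of barcodes past that floor was 4.89% in KO and 4.42% in WT), 0.22 with a protamine share of 1 to under 10%, 1.21 with barcodes thinned to 8000 UMIs and -1.83 for marker-high members; the cause was not tested. The 351 genes higher in KO became 103 at 50 CPM and 2768 with no level filter. The 118 lower became 186 with TMM, 371 with median of ratios (which shifts all genes by -0.15), 52 at 50 CPM, 799 with no level filter, 342 when thinned (342 higher), 258 by mean per-cell shares, 251 without barcodes over 20% mitochondrial and the 5% deepest, and 499 in marker-high members at 20 CPM. Median of ratios gave 234 higher, so the split of higher and lower calls turned. Pole2 reversed to 0.23 in marker-high members. List members stood at 24 higher and 5 lower with the 6 markers counted; the lower became 9 with TMM and 8 with equal weight of 4 protamine bins, and marker-high members gave 1 and 3.

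In marker-high members the 33 higher genes became 83 with the markers at 1500 CPM, 55 with TMM, 88 when thinned, 104 with free RNA subtracted and 76 at a share of 4% to under 10%; the 58 lower became 113, 121 when thinned, 156 with free RNA subtracted and 116. All 10 higher and 10 lower named genes kept their sign under the alternatives that gave a value, 7 for Cfap97 and 8 for the others, but some came near 0: Xrra1 0.03 when thinned, Malat1 0.06 with free RNA subtracted, and Tmsb4x 0.07, Fth1 0.09 and Malat1 0.09 with the markers at 1500 CPM. The 15 stage genes became 56 when thinned and 208 in marker-high members. Across the rule's protamine range 122 genes were higher in the last of 4 bins in both libraries and 22 lower; the lower became 44 when thinned, 13 with 3 bins and 939 along the steps of marker-high barcodes. Of counts and shares under an alternative, 34 stayed, 31 moved and 2 reversed; of single-gene values, 345 stayed, 48 moved and 1 reversed.

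No paired analysis was possible because each genotype has 1 library, and leaving out a library was not run for the same reason. Subtracting free RNA from all gated barcodes was not run, since its estimate there was 108% in KO with Fdx1 kept. The 16 KO marker-high members hold 356811 UMIs, against 1567858 in WT, so genes under 100 CPM were not counted there, and 1 barcode can carry 33.3% of a gene's UMIs, as for Tmsb4x.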
